A study of Mus musculus with 3 samples.

Results

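A set of 10 genes that promote or restrain mineralization were followed across the cell classes of the newborn mouse aortic root: Runx2, Spp1, Sost, Mgp, Enpp1, Alpl, Pthlh, Pth1r, Ank and Abcc6. The members were taken by name, as 10 rows of the 36167 features in the count matrices, with earlier results of these data known. Aortic valve structures were collected on postnatal day 1 from mice held as RBRC11098, which carry the allele Scx<tm1.1(EGFP)Skom of the scleraxis gene on a B6.Cg background. Zygosity is not given in the sources used here. All 3 pools, of 22 to 24 aortic roots each, belong to 1 group, so no control or treated group exists, and the comparisons set classes of nuclei against each other. The assay was the gene expression library of 10x Genomics Multiome, which counts unique molecular identifiers (UMIs), tags of single captured RNA molecules, in single nuclei.

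Mineral forms in soft tissue when the balance between phosphate and its inhibitor pyrophosphate shifts. Enpp1 encodes the ectoenzyme that makes pyrophosphate from ATP, Ank the transporter that carries pyrophosphate or its precursor out of the cell, Abcc6 a transporter needed for ATP release in the liver, and Alpl the alkaline phosphatase that degrades pyrophosphate. Mgp encodes matrix Gla protein, a vitamin K-dependent inhibitor of vascular calcification, and Spp1 encodes osteopontin, which binds mineral. Runx2 is the master transcription factor of osteoblasts, Sost encodes the Wnt antagonist sclerostin of bone cells, and Pthlh and Pth1r encode a paracrine ligand, parathyroid hormone-related protein, and its receptor. In calcific aortic valve disease, valve interstitial cells take on osteoblast genes, which makes their state in the newborn valve of interest.

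The Runx2 protein binds DNA at a short core, and the windows of 250 bases before the start sites show which members carry it. RefSeq windows (GRCm38.p6) were found for 8 of the 10 members, 12 windows in all, because Alpl, Spp1 and Pth1r have several starts. The core TGTGGT, read on both strands and so also as its complement ACCACA, was present in 3 of these 12 windows and in 14% of 32851 mouse windows of the same length. The 3 windows are printed 5′ to 3′ on the gene's strand, with the match in capitals. The Runx2 window lies at chr17:44814628-44814877 on the minus strand, that of Enpp1 at chr10:24712160-24712409 on the minus strand, and that of the first Spp1 start at chr5:104434861-104435110 on the plus strand.
Runx2: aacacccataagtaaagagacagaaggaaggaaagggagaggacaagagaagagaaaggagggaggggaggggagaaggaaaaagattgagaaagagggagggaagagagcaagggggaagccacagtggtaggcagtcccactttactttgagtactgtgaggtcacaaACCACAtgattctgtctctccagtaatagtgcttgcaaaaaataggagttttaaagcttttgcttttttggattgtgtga
Enpp1: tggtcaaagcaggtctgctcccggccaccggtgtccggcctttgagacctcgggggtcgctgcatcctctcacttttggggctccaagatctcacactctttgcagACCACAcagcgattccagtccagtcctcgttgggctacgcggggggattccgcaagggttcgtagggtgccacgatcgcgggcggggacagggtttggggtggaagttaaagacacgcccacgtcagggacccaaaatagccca
Spp1: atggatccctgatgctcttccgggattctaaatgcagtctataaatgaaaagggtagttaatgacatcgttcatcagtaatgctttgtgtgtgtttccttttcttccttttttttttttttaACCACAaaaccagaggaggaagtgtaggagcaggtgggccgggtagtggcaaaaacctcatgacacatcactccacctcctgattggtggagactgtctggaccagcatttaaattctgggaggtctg
The match begins 80 bases before the start in Runx2, 144 in Enpp1 and 128 in Spp1. The letters TATAAA, either strand, occurred in 2 of the 12 windows and in 12.4% of all windows. The CArG box bound by serum response factor occurred in 0 of 12 and in 1.47% of all. These letter matches describe the windows and are not measured binding sites.

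The 3 pools held 21140 deposited nuclei. Those with at least 1000 UMIs and at most 5% mitochondrial UMIs were kept, and 13130 nuclei were analysed after likely doublets were removed (6459, 3078 and 3593 in pools 1, 2 and 3, with median UMIs of 4288, 4771 and 3341). More than 5% mitochondrial UMIs were found in 14.1% to 41.8% of the deposited nuclei of a pool. Pools 1 and 2 shared 99 barcodes, pools 1 and 3 shared 59, and pools 2 and 3 shared 44. Clusters were named from marker genes, and 11082 nuclei fell into 9 classes that each pool represented by 20 nuclei or more: 1478 valve interstitial-like, 1005 fibroblast-like, 3038 smooth muscle-like, 132 pericyte-like, 2744 endothelial-like, 118 lymphatic endothelial-like, 364 mesothelial-like, 256 macrophage-like and 1947 cardiomyocyte-like. In these classes, 6 of 8 smooth muscle markers, 12 of 14 endothelial markers and all markers of the other 7 classes were at least 2-fold above the mean of the other classes. In addition, 72 melanocyte-like and 57 adipocyte-like nuclei and 1919 nuclei in 4 unnamed clusters stayed outside the class tests. The labels call the tissue heterogeneous aortic valve, and most nuclei were not valve interstitial-like.

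The members spanned a wide range of total counts. Over all analysed nuclei there were 72921 UMIs of Mgp, 6055 of Ank, 4082 of Sost, 1463 of Enpp1, 962 of Runx2, 947 of Pth1r, 648 of Pthlh, 124 of Alpl, 30 of Abcc6 and 29 of Spp1. Counts are not corrected for gene length, so levels are compared between classes for 1 gene and not between genes. Levels are CPM, a gene's UMIs scaled to a fixed total, of the UMIs summed over the nuclei of a class in 1 pool. Of the 10 members, 8 passed the filter on low counts, and Spp1 and Abcc6 did not. Differences are log2, with each class set against the mean of the other 8. They were tested by edgeR's quasi-likelihood fit with pool as a block and Benjamini-Hochberg adjustment over all 14317 genes tested (threshold 0.05). Nothing in the labels says whether the pools came from separate litters. With pool as a block, the p-values measure how class differences vary between these pools, not the spread between the pools themselves. The member and pathway genes were kept out of the clustering. Intervals cover counting error only.

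**Figure D1:**
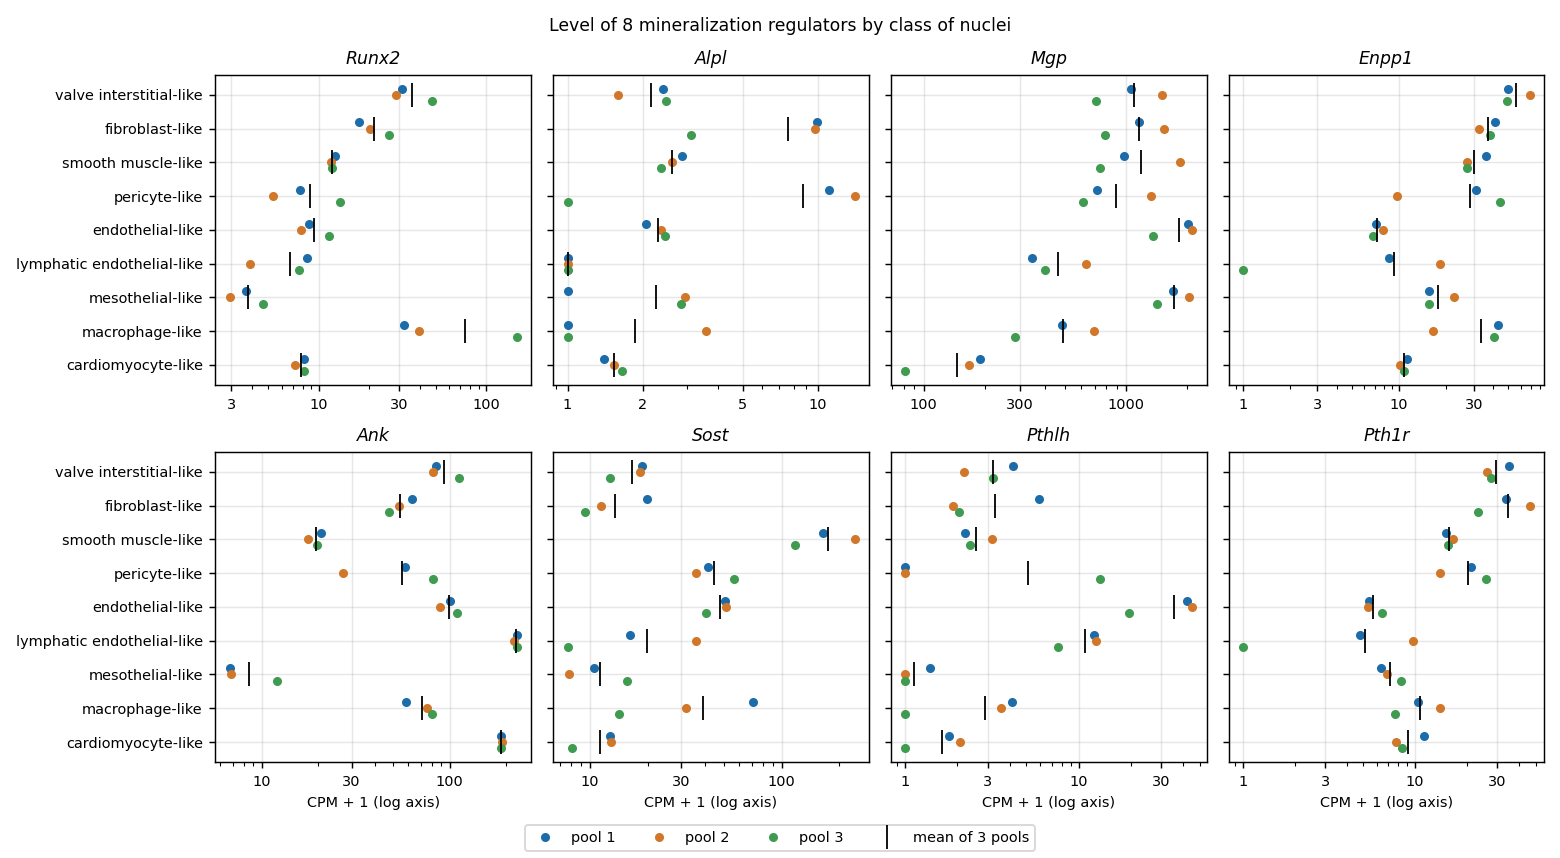
Level of 8 members in 9 classes of nuclei, as CPM + 1 on a log axis; dots are the 3 pools and black ticks their mean. Runx2 and Enpp1 were high in valve interstitial-like nuclei, Sost in smooth muscle-like, Pthlh in endothelial-like, and Ank in lymphatic endothelial-like and cardiomyocyte-like nuclei; 1 macrophage-like pool stands apart for Runx2.

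Valve interstitial-like nuclei had more Runx2, Enpp1, Pth1r, Ank and Mgp and less Sost than the mean of the other classes. Called higher were 5 of the 8 tested members, against 18.6% of all genes tested, and called lower was 1 of 8, against 15% of all genes.

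For Runx2, the osteoblast regulator, valve interstitial-like nuclei held 30.5, 28.0 and 46.3 CPM in pools 1, 2 and 3 (86, 47 and 63 UMIs). Fibroblast-like nuclei followed with 16.3, 19.2 and 25.3 CPM and smooth muscle-like nuclei with 11.5, 10.8 and 10.9 CPM. The pools of these 3 classes did not overlap, nor did smooth muscle-like and endothelial-like pools (7.74, 6.86 and 10.5 CPM). From the endothelial-like class down, neighbours in the order of the means overlapped. The valve interstitial-like difference was 1.74 (SE 0.19, adjusted p = 4.18e-10, edgeR) and held in every pool. Runx2 was 0.80 higher than in fibroblast-like nuclei (SE 0.24, adjusted p = 0.0139, edgeR), a call lost with DESeq2 (adjusted p = 0.0668), without pool 1 (0.155, edgeR), without the pool block (0.0772), at 500 UMIs (0.0795) and with no mitochondrial limit (0.0728). Fibroblast-like nuclei were 0.84 higher than the mean of the other classes (SE 0.24, adjusted p = 0.00607, edgeR), a call lost without pool 2 (adjusted p = 0.111, edgeR) and with doublets kept (0.0963). With the melanocyte-like class in the fit the difference was 0.38 (adjusted p = 0.25, edgeR). At an equal depth of 1000 UMIs per nucleus, 2.63% ± 0.63 of valve interstitial-like nuclei had a Runx2 UMI (SD, n = 3 pools), against 0.765% ± 0.53 of cardiomyocyte-like nuclei, a class taken as the background of free RNA. Their median depths were 3619 and 5525 UMIs, and without thinning the shares were 9.29% and 3.80%. Runx2 overlaps Supt3 in the mouse annotation, and the strand setting of the counting is not given in the sources used here. Supt3 stood at 136 ± 3.28 CPM in valve interstitial-like nuclei, within a range of 73.2 to 214 over the class means.

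Macrophage-like nuclei had the highest mean Runx2 of the 9 classes, and much of it came from 1 nucleus. The pools held 31.1, 38.6 and 152 CPM, from 20, 15 and 23 UMIs. All 23 UMIs of pool 3 lay in 1 of its 49 macrophage-like nuclei, and the other 48 had none; the pools without their highest nucleus stood at 20.7, 26.1 and 0 CPM. The difference of 2.33 (SE 0.28, adjusted p = 3.99e-09, edgeR) became 1.88 without pool 3 (adjusted p = 1.70e-05, edgeR). Called higher in this class was 1 of 8 members (16.2% of all genes), and Mgp was the 1 called lower (13.4%). Mesothelial-like nuclei had the least Runx2, 2.68, 1.94 and 3.65 CPM, a difference of -2.02 (SE 0.41, adjusted p = 4.29e-05, edgeR). In that class 5 of 8 members were lower (24.8% of all genes) and 1 higher (32.8%). Of the 5, Pth1r was lost without pool 1 (adjusted p = 0.194, edgeR) or pool 2 (0.168), and Pthlh without pool 3 (1). Both were lost with the melanocyte-like class in the fit (0.145 for Pth1r and 1 for Pthlh).

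Outside the tested classes, the 72 melanocyte-like nuclei had 189, 167 and 369 CPM of Runx2. In pool 2, 7 of the 12 UMIs lay in 1 nucleus, and the pools without their highest nucleus stood at 153, 74.7 and 267 CPM. In a fit that added this class after the data were seen, 5.89% of 14004 genes were called higher in it and 4.36% lower, and Runx2 was 4.09 higher (SE 0.27, adjusted p = 1.81e-17, edgeR).

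Within the valve interstitial-like class, the members divided between its 2 clusters, which are each other's mirror image in the test. The cluster led by Rmst and Pcdh15 (962 nuclei) had 35.9, 33.1 and 50.6 CPM of Runx2. The cluster led by Abi3bp and Ctnna2 (516 nuclei) had 16.5, 16.0 and 34.1 CPM, lower in every pool. This difference of 0.91 (SE 0.28, adjusted p = 0.0191, edgeR) was not called by DESeq2 (adjusted p = 0.398), nor without pool 1 (adjusted p = 0.222, edgeR), without pool 2 (0.0553) or without the pool block (0.109). The Abi3bp and Ctnna2 cluster was higher in Pth1r (48.3, 47.9 and 51.1 CPM against 28.5, 15.3 and 17.9), with a difference of 1.18 (SE 0.26, adjusted p = 0.000735, edgeR; DESeq2 0.055). It was also higher in Ank by 0.86 and in Mgp by 0.65, the latter a call lost without the pool block (adjusted p = 0.424, edgeR). For this cluster 3 of 6 members were called higher, against 7.66% of 9908 genes. Runx2 was lower there, 1 of 6, against 7.4%.

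Osteoblast factors beyond Runx2 were described from a list of 10. Runx1, a paralog of Runx2 best known in blood formation, was the gene of that list with the largest difference in valve interstitial-like nuclei, 3.51 (SE 0.14, adjusted p = 2.7e-19, edgeR). Twist1, a mesenchymal factor that restrains Runx2 protein, was 1.80 higher, and Cbfb, the shared partner of RUNX proteins, 0.39 higher. Of the 6 genes tested on that list, 3 were higher and 0 lower in this class, with a median of 0.20 against 0.00036 over all genes, of which 18.6% were higher and 15% lower. Macrophage-like nuclei had the same counts, with a median of 0.78 (16.2% and 13.4% of all genes), and Runx1 was 5.04 higher there. The osteoblast factor Sp7 had 16 UMIs in all analysed nuclei, Dlx5 had 61, Dlx6 had 16 and Msx2 had 53, too few for the test. Bone matrix genes were close to absent: Ibsp had 0 UMIs, Dmp1 1, Mepe 2, Dspp 1, Bglap 8 and Bglap2 2. Type I collagen, which bone and soft connective tissue share, was higher in the valve interstitial-like class (Col1a1 and Col1a2 each by 0.92) and in fibroblast-like nuclei (1.89 and 1.75). Of 4 bone matrix genes tested, 2 were higher in the former and 4 in the latter, where Sparc (0.75) and Phex (0.96) were the others (18.6% and 18.1% of all genes were higher). In mesothelial-like nuclei 3 of 4 were higher and 1 lower (32.8% and 24.8% of all genes), with a median of 3.24 and Col1a1 at 3.66.

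The pyrophosphate genes differed in where they were high. Enpp1 was highest in valve interstitial-like nuclei, with 48.5, 67.9 and 47.8 CPM, ahead of fibroblast-like nuclei (40.0, 31.5 and 36.9) without overlap. Its difference from the mean of the other classes was 1.54 (SE 0.15, adjusted p = 1.35e-11, edgeR), and fibroblast-like (0.90) and smooth muscle-like nuclei (0.77) were called higher too. Against fibroblast-like nuclei alone it was 0.57 higher (SE 0.19, adjusted p = 0.0263, edgeR), a call lost under 7 alternatives. These were DESeq2 (adjusted p = 0.062), leaving out pool 2 (0.341, edgeR) or pool 3 (0.0592), no pool block (0.0867), 500 UMIs (0.0806), members in the clustering (0.0775) and the melanocyte-like class added (0.0531). Of the tested classes, endothelial-like nuclei had the least Enpp1, 6.14, 6.86 and 5.78 CPM, a difference of -1.96 (SE 0.22, adjusted p = 3.29e-10, edgeR). Thinned to 1000 UMIs, 4.68% ± 0.86 of valve interstitial-like nuclei had an Enpp1 UMI and 0.503% ± 0.058 of endothelial-like nuclei (SD, n = 3 pools), with medians of 3619 and 4461 UMIs.

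A cardiomyocyte-like cluster differed from the rest of its class in Enpp1. Its leading genes were Ryr3 and Cpne5 (194 nuclei), and it held 37.5, 21.3 and 47.5 CPM of Enpp1, where the main cardiomyocyte-like cluster held 6.91, 8.46 and 5.86. The difference was 2.18 (SE 0.38, adjusted p = 9.52e-06, edgeR). Enpp1 and Mgp (0.94 higher, a call lost without the pool block at adjusted p = 0.107, edgeR) were 2 of 6 members called higher there, against 13.7% of 10998 genes, and 0 were lower, against 10.5%.

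Ank, the pyrophosphate transporter gene, was highest in lymphatic endothelial-like (227, 219 and 226 CPM) and cardiomyocyte-like nuclei (187, 188 and 187 CPM). The pools lay close together in both classes. In the lymphatic class 15 of 60 UMIs of pool 1 and 26 of 76 of pool 2 lay in 1 nucleus each. Without the highest nucleus of each pool, the lymphatic levels were 174, 147 and 199.8 CPM and the cardiomyocyte-like ones 186, 185 and 184 CPM, and the classes overlapped. Their differences were 2.03 (SE 0.15, adjusted p = 5.49e-15, edgeR) and 2.26 (SE 0.079, adjusted p = 8.14e-28, edgeR). In the lymphatic class 2 of 8 members were called higher (12.9% of all genes). The second was Pthlh, from 8 UMIs, a call lost without pool 1 (adjusted p = 0.0904, edgeR), without pool 2 (0.212) and without the pool block (0.0556). Mgp was the 1 called lower (-1.05, with 10.4% of all genes lower), a call lost with doublets kept (-0.44, adjusted p = 0.0579, edgeR). In the cardiomyocyte-like class 1 of 8 was higher (33.4%) and 4 of 8 were lower (32.3%), of which Pthlh was lost without pool 1 or pool 3 and with the melanocyte-like class (adjusted p = 1 in each, edgeR), and without the lymphatic class (0.0504). Enpp1, another of the 4 (-0.79), was lost with no mitochondrial limit (-0.44, adjusted p = 0.138, edgeR) and with the melanocyte-like class (-0.44, adjusted p = 0.212, edgeR). The haemoglobin gene Hbb-bs was also highest in the lymphatic class, with a mean of 3762 CPM against 88.0 in the lowest class, and its part in these values was not tested. Smooth muscle-like (19.7, 16.7 and 18.6 CPM) and mesothelial-like nuclei (5.75, 5.82 and 11.0 CPM) had the least Ank, with differences of -1.78 and -3.35. At equal depth 16.0% ± 0.55 of cardiomyocyte-like nuclei had an Ank UMI, against 5.54% ± 3.19 of macrophage-like and 0.790% ± 0.69 of mesothelial-like nuclei (SD, n = 3 pools).

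Alpl, the phosphatase that removes pyrophosphate, had few UMIs, 124 in all, and among the tested classes its mean level was highest in pericyte-like and fibroblast-like nuclei. Fibroblast-like nuclei had 18, 10 and 2 UMIs in pools 1, 2 and 3 (8.89, 8.74 and 2.11 CPM), and valve interstitial-like nuclei had 4, 1 and 2 (1.42, 0.595 and 1.47 CPM). Pericyte-like nuclei had 3, 3 and 0 UMIs, smooth muscle-like nuclei 14, 3 and 3, and endothelial-like nuclei 8, 6 and 4. The 57 adipocyte-like nuclei, not tested, had 8, 1 and 1 UMIs and the highest mean, 40.9 ± 32.9 CPM (SD, n = 3 pools). Because the lymphatic class had 0 Alpl UMIs in every pool, a difference against the mean of all classes depends on how that 0 is handled. Without that class, Alpl was 2.27 higher in fibroblast-like nuclei (SE 0.44, adjusted p = 6.34e-05, edgeR) and 2.50 higher in pericyte-like nuclei (SE 0.85, adjusted p = 0.0434, edgeR). With that class kept, the pericyte-like call was lost without pool 2 (adjusted p = 0.186, edgeR), at 500 UMIs (0.125), with doublets kept (0.0831) and with no mitochondrial limit (0.246). Called higher in the fibroblast-like class were 5 of 8 members (18.1% of all genes) and lower 1 of 8 (11.5%), and in the pericyte-like class 1 of 8 was higher (8.72%) and 0 lower (3.9%). Valve interstitial-like nuclei were lower than fibroblast-like nuclei by a difference of -2.51 (SE 0.61, adjusted p = 0.00188, edgeR), a call lost without pool 2 (adjusted p = 0.0689, edgeR) or with members in the clustering (adjusted p = 0.0528, edgeR). In that direct comparison 3 of 8 members were higher, against 8.28% of all genes, and 1 of 8 lower, against 9.42%.

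Abcc6 and Spp1 were close to undetected. Abcc6 had 5 UMIs in valve interstitial-like nuclei, 8 in smooth muscle-like and 0 in 4 of the 9 classes. Spp1, an osteopontin gene usually strong in bone cells and activated macrophages, had 1, 3 and 1 UMIs in macrophage-like nuclei and 1, 2 and 4 in valve interstitial-like nuclei. The highest class mean of Spp1 was 5.29 ± 3.29 CPM, in macrophage-like nuclei, and pools overlapped between all neighbouring classes. At this depth no order of classes can be read for either gene.

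Other genes of phosphate handling came from a list of 8, of which 7 were tested. In endothelial-like nuclei 4 were higher and 1 lower, with a median of 0.57 against 0.027 over all genes, of which 21.6% were higher and 15.4% lower. The nucleotidase genes Entpd1 (2.41) and Nt5e (1.28) and the sphingomyelinase gene Smpd3 (2.18) were the higher ones with the largest differences. In valve interstitial-like nuclei 0 were higher and 3 lower (18.6% and 15% of all genes), among them Smpd3 (-2.50) and Entpd1 (-1.69). Entpd1 was also higher in smooth muscle-like nuclei, by 2.69 (SE 0.14, adjusted p = 3.5e-12, edgeR). Phospho1, the phosphatase of matrix vesicles, had 140 UMIs and was not tested.

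Mgp, the calcification inhibitor, was found in every class and was highest in endothelial-like and mesothelial-like nuclei. Endothelial-like nuclei held 2028, 2128 and 1355 CPM, and mesothelial-like nuclei 1699, 2039.9 and 1416 CPM. The smooth muscle-like, fibroblast-like and valve interstitial-like classes followed with means of 1188, 1164 and 1089 CPM, and their pools overlapped. Cardiomyocyte-like nuclei had the least of the tested classes, 189, 166 and 80.1 CPM, below every other tested class. The differences were 1.32 in endothelial-like (SE 0.10, adjusted p = 1.28e-13, edgeR), 1.46 in mesothelial-like (SE 0.10, adjusted p = 6.15e-15, edgeR) and -2.38 in cardiomyocyte-like nuclei (SE 0.14, adjusted p = 3.05e-17, edgeR). Valve interstitial-like nuclei were 0.43 higher (SE 0.11, adjusted p = 0.00183, edgeR). That call, like those of fibroblast-like (0.55) and smooth muscle-like nuclei (0.68), was lost when the pool block was left out (adjusted p = 0.304 for valve interstitial-like nuclei). The smooth muscle-like call was also lost at clustering resolution 2 (0.29, adjusted p = 0.0531, edgeR).

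A Mgp UMI was present in 58.5% ± 6.49 of endothelial-like and 43.1% ± 11.4 of valve interstitial-like nuclei at equal depth, and in 13.3% ± 4.46 of cardiomyocyte-like nuclei (SD, n = 3 pools). The median depths of these classes were 4461, 3619 and 5525 UMIs. Mgp was lowest in pool 3 in 8 of the 9 classes, with a median ratio of 0.58 to the mean of the other pools. Sost was lowest in pool 3 in 7 of the 9 classes, with a ratio of 0.60, whereas for Runx2 the ratio was 1.44. Pool 3 also had the lowest mitochondrial share among analysed nuclei, 0.98% against 1.39% and 1.65%, and the part of this in the member levels was not tested.

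**Figure D2:**
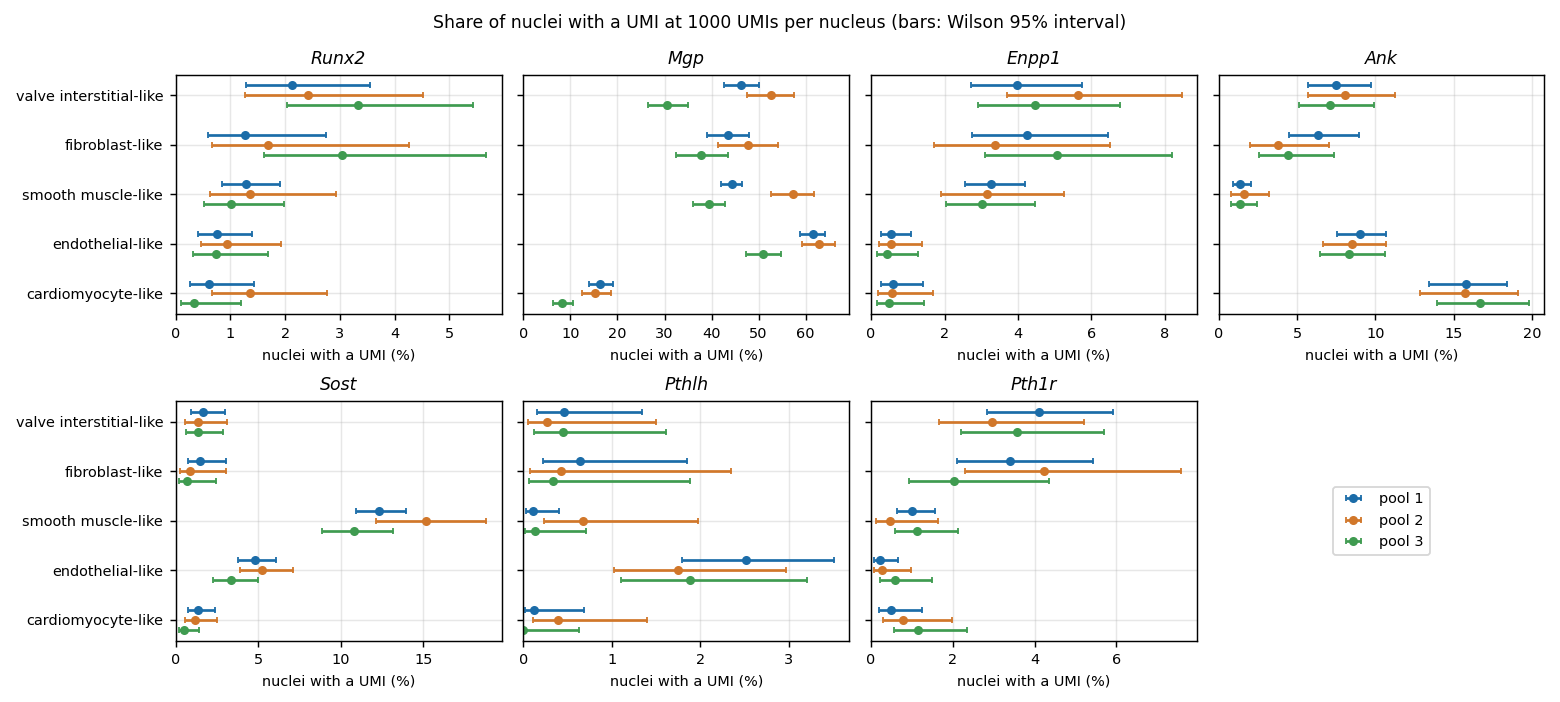
Share of nuclei with a UMI of each of 7 members after thinning every nucleus to 1000 UMIs, by class and pool, with Wilson 95% intervals that cover counting error only. Cardiomyocyte-like nuclei serve as background for the members other than Ank and Enpp1, and Mgp was found in 13.3% of them.

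Gla proteins need vitamin K-dependent carboxylation, and a list of 4 genes for it was tested. In endothelial-like nuclei 3 of 4 were higher and 0 lower (21.6% and 15.4% of all genes): Vkorc1 (0.43), which recycles vitamin K, Vkorc1l1 (0.23) and the Gla protein gene Gas6 (0.23). In fibroblast-like nuclei 3 were higher, with Ggcx, the carboxylase gene, first at 0.81, and Gas6 was lower at -0.68 (18.1% and 11.5% of all genes). In valve interstitial-like nuclei 2 were higher, Ggcx (0.46) and Vkorc1l1 (0.27), and Gas6 was lower at -0.87 (18.6% and 15% of all genes). In mesothelial-like nuclei 2 were higher, Vkorc1 (2.70) and Gas6 (2.50), and 0 lower (32.8% and 24.8%).

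Sost, the sclerostin gene, was highest in smooth muscle-like nuclei among the tested classes. Smooth muscle-like nuclei held 163, 239.5 and 117 CPM, above every pool of every other class, and endothelial-like nuclei 49.6, 50.5 and 39.4 CPM. Pericyte-like nuclei had 40.2, 34.7 and 55.7 CPM, overlapping the endothelial-like pools, but 8 of the 9 UMIs of pool 3 lay in 1 nucleus. Macrophage-like nuclei had 70.0, 30.9 and 13.2 CPM, which also overlapped the endothelial-like pools. The unnamed clusters, not tested as classes, held 1010 Sost UMIs, with means of 125 CPM in the cluster led by Hbb-bt and Hbb-bs, 93.6 in that led by Neil3 and Diaph3, 98.6 in that led by Mylk4 and Col19a1 and 10.1 in that led by Lrrc4c and Erc2. Valve interstitial-like nuclei had only 17.7, 17.3 and 11.8 CPM, and fibroblast-like nuclei 18.8, 10.5 and 8.44 CPM. The smooth muscle-like difference was 3.08 (SE 0.12, adjusted p = 1.77e-22, edgeR) and the endothelial-like one 0.84 (SE 0.14, adjusted p = 5.64e-06, edgeR). The smooth muscle-like class had 4 of 8 members higher (23.2% of all genes) and 1 lower (19.3%), and the endothelial-like class 4 higher (21.6%) and 2 lower (15.4%). At equal depth 12.8% ± 2.20 of smooth muscle-like nuclei had a Sost UMI, against 0.999% ± 0.45 of cardiomyocyte-like and 1.45% ± 0.20 of valve interstitial-like nuclei (SD, n = 3 pools).

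Sost and Mgp went in opposite directions inside the smooth muscle-like class. The cluster led by Ptprz1 and Mylk4 (1279 nuclei) had 227, 354 and 193 CPM of Sost and 546, 1208 and 366 CPM of Mgp. The cluster led by Clca3a2 and Pi15 (1043 nuclei) had 59.5, 82.7 and 47.2 CPM of Sost and 1663, 2825 and 1087 CPM of Mgp. In each pool the first was higher in Sost and the second in Mgp. Against the mean of the other smooth muscle-like clusters, Sost was 1.33 higher in the first (SE 0.090, adjusted p = 6.6e-18, edgeR), and there Mgp differed by -1.03 (SE 0.064, adjusted p = 1.96e-19, edgeR). In the second Sost differed by -1.76 (SE 0.11, adjusted p = 3.0e-19, edgeR) and Mgp by 1.07 (SE 0.058, adjusted p = 1.53e-21, edgeR). The Mgp calls were lost without the pool block (adjusted p = 0.418 and 0.310, edgeR). Of 6 members, 1 was higher in each cluster, against 10.4% and 9.1% of 9910 genes, and 1 and 2 were lower, against 8.7% and 10.4%. The second lower gene in the Clca3a2 and Pi15 cluster was Runx2 (-0.94, adjusted p = 0.0311, edgeR), a call lost with DESeq2 (0.288), with no filter on low counts (0.0691), without the pool block (0.0667) and without pool 1 (0.407) or pool 2 (0.0993).

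The third smooth muscle-like cluster, led by Itgbl1 and Xkr4 (716 nuclei), had Runx2 at 22.9, 17.5 and 18.3 CPM, above every pool of the other smooth muscle-like clusters. The difference was 1.21 (SE 0.32, adjusted p = 0.00516, edgeR), not called by DESeq2 (adjusted p = 0.132) nor without pool 1 (adjusted p = 0.299, edgeR). Pth1r (0.85) and Sost (0.43) were called higher there as well by edgeR, and neither by DESeq2 (adjusted p = 0.287 and 0.0509). These were 3 of 6 members, against 6.32% of 9910 genes, and 0 were lower, against 5.24%. Without pool 1 none of the 3 was called (adjusted p = 0.299 for Runx2, 0.14 for Pth1r and 0.105 for Sost, edgeR), and Pth1r was also lost without pool 2 (0.0633) or pool 3 (0.294) and with no filter on low counts (0.0767). Without the pool block Pth1r (0.0839) and Sost (0.481) were lost.

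Sclerostin acts through the receptors Lrp5, Lrp6 and the helper Lrp4, and these were tested with the other Wnt antagonists. Of 7 genes 5 were tested, and in fibroblast-like nuclei all 5 were higher (18.1% of all genes), with Dkk2 (2.00), Lrp4 (1.48) and Dkk3 (1.25) first. In valve interstitial-like nuclei 3 were higher, Dkk3 (2.32, SE 0.073, adjusted p = 1.1e-28, edgeR), Lrp4 (1.28) and Lrp5 (0.81), and 0 were lower (18.6% and 15% of all genes). In mesothelial-like nuclei 0 were higher and 4 lower (32.8% and 24.8%). Endothelial-like nuclei had more Dkk2 (4.42) and Lrp5 (1.12) and less Dkk3 (-0.98) and Lrp6 (-0.31), 2 genes each way (21.6% and 15.4%). Dkk1 and Sostdc1 had 8 UMIs each.

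Pthlh, the ligand gene, was mainly an endothelial transcript: 555 of its 648 UMIs lay in endothelial-like nuclei, an average of 81.5% ± 12.7 over the pools (SD, n = 3). That class held 41.3, 44.3 and 18.4 CPM and the lymphatic class 11.3, 11.5 and 6.65 CPM, from 8 UMIs in all. The other 7 classes had mean levels of 0.128 to 4.12 CPM. The endothelial-like difference was 4.21 (SE 0.22, adjusted p = 6.81e-21, edgeR).

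A single endothelial-like cluster, led by Kcnc2 and Fam155a, carried most of it. Its 432 nuclei, 3.43% of all analysed on average, held 68.5% ± 15.3 of the Pthlh UMIs (SD, n = 3 pools). The levels were 199, 211 and 66.7 CPM, higher in every pool than in the other 5 tested endothelial-like clusters. The difference from their mean was 5.82 (SE 0.22, adjusted p = 4.10e-21, edgeR). An untested endothelial-like cluster of 52 nuclei, led by Kif23 and Ccnf, had 36.8, 0 and 67.6 CPM (8, 0 and 5 UMIs). At equal depth 9.28% ± 1.45 of the nuclei led by Kcnc2 and Fam155a had a Pthlh UMI, against 0.170% ± 0.20 of cardiomyocyte-like nuclei. The median depths were 5349.5 and 5525 UMIs. Unthinned shares were 26.1% and 0.421%. Sost was lower in this cluster (-0.95, SE 0.23, adjusted p = 0.00223, edgeR). Of 4 members tested, 2 were higher, against 16.1% of 10347 genes, and 1 lower, against 8.27%. Pthlh, 1 of the 2, passed the filter on low counts only through its level in this cluster, so its count here is not independent support. Pthlh is also among the 4 members counted for the other endothelial-like clusters. The second gene called higher was Mgp (0.34, adjusted p = 0.0268, edgeR), a call lost with DESeq2 (0.0838), without the pool block (0.151) and without pool 1 (0.231) or pool 2 (0.259). With no limit on mitochondrial UMIs a cluster holding these nuclei stayed unnamed, and the endothelial-like mean of Pthlh was 10.1 CPM in place of 34.7.

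The endothelial-like cluster led by Mannr and Ptchd1 (244 nuclei) had the most Mgp of all clusters tested, 4834, 5119.6 and 3546 CPM. Its Mgp was 2.11 higher than the mean of the other endothelial-like clusters (SE 0.099, adjusted p = 2.12e-14, edgeR). Pthlh there stood at 29.1, 12.96 and 8.13 CPM, 2.02 higher (SE 0.43, adjusted p = 0.00041, edgeR), a call lost without pool 1 (adjusted p = 0.113, edgeR), and Ank differed by -1.37 (SE 0.23, adjusted p = 1.49e-05, edgeR). Of 4 members tested, 2 were higher, against 11.5% of 10347 genes, and 1 lower, against 10.3%. In the cluster led by Rtl4 and Cytl1, Mgp was 1.02 higher (2719.8, 2517 and 1836 CPM), and with Ank 2 of 4 members were higher, against 12.2%, and 0 lower, against 7.99%. The Ank call there (0.39, adjusted p = 0.0497, edgeR) was lost with DESeq2 (0.146), with RLE scaling (0.0586), without the pool block (0.148) and without any 1 of the pools (0.109 to 0.216). The cluster led by Grid1 and Col23a1 (738 nuclei) showed another arrangement, with the most Ank (193, 191 and 244 CPM, 1.93 higher) and Sost (88.7, 109 and 75.7 CPM, 1.51 higher) of the endothelial-like clusters. Pthlh there had 0, 0 and 1.65 CPM. In that cluster 2 of 4 members were higher, against 13% of genes, and 1 lower, against 14.6%. The lower one was Pthlh, a call lost without pool 1 (adjusted p = 1, edgeR). The clusters led by Dlgap2 and Cntnap5a and by Pcdh17 and Aplnr had the least Mgp, with means of 541 and 484 CPM. Of 4 members, 0 were higher and 1 lower in the first of these (10.5% and 11.8% of genes), and 0 higher and 3 lower in the second (16.9% and 11.5%). Sost, 1 of these 3 (-0.71, adjusted p = 0.0487, edgeR), was lost with DESeq2 (0.077), RLE scaling (0.0569), without the pool block (0.0808) and without pool 2 (0.108) or pool 3 (0.222).

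**Figure D3:**
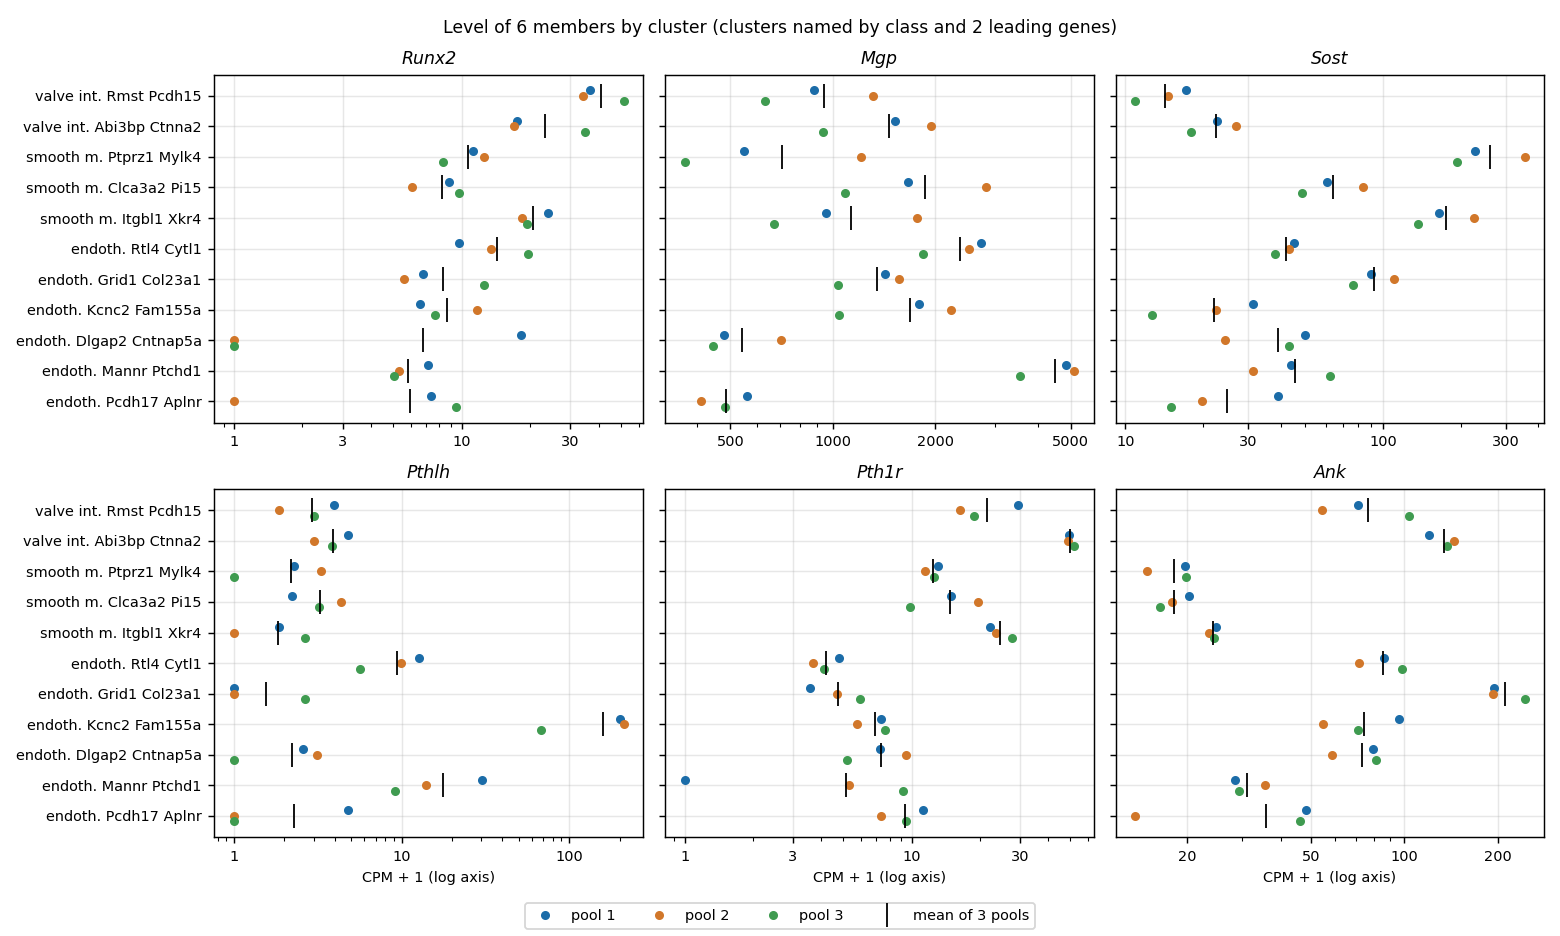
Level of 6 members in 11 clusters of 3 classes, as CPM + 1 on a log axis; dots are the 3 pools and black ticks their mean, and each cluster carries its class and 2 leading genes. Among the clusters shown, Pthlh stands out in 1 endothelial-like cluster, and Sost and Mgp are high in different smooth muscle-like clusters.

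Pth1r, the receptor gene, was highest in fibroblast-like and valve interstitial-like nuclei among the tested classes. The adipocyte-like nuclei, not tested, had 5 Pth1r UMIs and a mean of 34.6 ± 37.4 CPM (SD, n = 3 pools). Fibroblast-like nuclei held 32.6, 45.5 and 22.1 CPM and valve interstitial-like nuclei 34.0, 25.0 and 26.5 CPM, which overlapped. Endothelial-like nuclei held 4.40, 4.34 and 5.42 CPM. The differences were 1.70 (SE 0.20, adjusted p = 2.12e-09, edgeR), 1.46 (SE 0.19, adjusted p = 1.69e-08, edgeR) and -1.53 (SE 0.25, adjusted p = 1.71e-06, edgeR). Smooth muscle-like nuclei had 14.1, 15.6 and 14.6 CPM, and their call (0.49, adjusted p = 0.0449, edgeR) was lost under 9 alternatives. At equal depth 3.54% ± 0.58 of valve interstitial-like nuclei had a Pth1r UMI and 0.802% ± 0.33 of cardiomyocyte-like nuclei (SD, n = 3 pools).

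**Figure D4:**
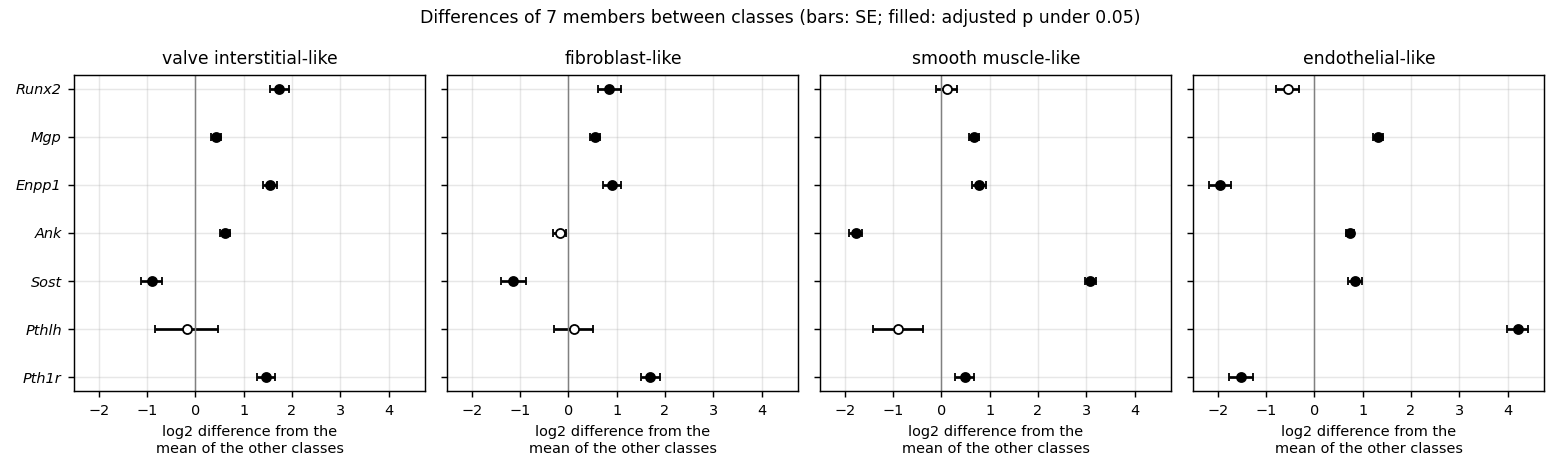
Log2 difference of 7 members in 4 classes from the mean of the other classes, with SE; filled points have an adjusted p under 0.05 by edgeR. Sost is highest in smooth muscle-like and Pthlh in endothelial-like nuclei, and Pth1r and Enpp1 are low where Pthlh is high; Alpl is left out because 1 class had none.

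Hedgehog genes act next to parathyroid hormone-related protein in growing cartilage. Of 7 genes in that list 4 were tested, and all 4 were higher in fibroblast-like nuclei, with a median of 1.498 against 0.019 over all genes, of which 18.1% were higher. In mesothelial-like nuclei 3 were higher and 0 lower (32.8% and 24.8% of all genes), and in smooth muscle-like nuclei 3 were higher and 1 lower (23.2% and 19.3%). Gli1, a readout of hedgehog signalling, was 3.15 higher in fibroblast-like nuclei (SE 0.24, adjusted p = 5.1e-15, edgeR), and Gli3 was 2.28 higher in them. In valve interstitial-like nuclei Gli3 (2.09) and Gli1 (0.97) were higher, whereas the hedgehog receptor gene Ptch1 (-0.67) and Gnas (-0.42), which encodes the G protein subunit used by Pth1r, were lower (18.6% and 15% of all genes). Pth had 0 UMIs, Ihh 29 and Pth2r 97. In RefSeq's annotation Pth1r overlaps Gm35775 and Ank overlaps Gm29901, so reads of each pair may be shared.

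The osteoprotegerin list holds 3 genes, of which 2 were tested. Tnfrsf11b, the decoy receptor osteoprotegerin, was 3.51 higher in smooth muscle-like nuclei (SE 0.21, adjusted p = 6.2e-17, edgeR) and 1.36 higher in fibroblast-like nuclei. The receptor gene Tnfrsf11a was 5.58 higher in macrophage-like nuclei, where Tnfrsf11b was 1.55 higher (16.2% of all genes were higher). It was also 0.97 higher in smooth muscle-like nuclei (23.2%), and it was lower in valve interstitial-like nuclei (-3.35), with 15% of all genes, and in fibroblast-like nuclei (-3.45), with 11.5%. Their shared ligand Tnfsf11 had 14 UMIs. Among 6 receptor genes for osteopontin, 2 were higher and 2 lower in valve interstitial-like nuclei (18.6% and 15% of all genes), with Cd44 first at 2.40 and Itgb3 at -1.61. In smooth muscle-like nuclei 3 were higher, among them Itgb3 (2.16) and Itga9 (1.72), and 0 lower (23.2% and 19.3%). In macrophage-like nuclei 4 were higher, with Cd44 first at 2.48, and 1 lower (16.2% and 13.4%).

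Over the whole list of 55 pathway genes, 38 were tested and 17 had too few counts. In valve interstitial-like nuclei 14 of the 38 were higher and 9 lower, where 18.6% and 15% of all genes were. In fibroblast-like nuclei the counts were 23 and 6 (18.1% and 11.5% of all genes), in smooth muscle-like 16 and 7 (23.2% and 19.3%), and in endothelial-like 14 and 12 (21.6% and 15.4%). The median differences were 0.16, 0.42, 0.20 and 0.070, against 0.00036, 0.019, 0.0070 and 0.027 over all genes. Markers of cartilage and of osteoclasts were read beside these. Of 6 cartilage markers, Col2a1 had 48 UMIs, Matn1 6 and Matn3 16, while Acan reached a mean of 229 CPM in smooth muscle-like nuclei. Col9a3 reached 66.9 CPM in valve interstitial-like nuclei, and Col9a2 14.8 CPM in fibroblast-like nuclei. Of 5 osteoclast markers, Ocstamp had 2 UMIs, Dcstamp 16 and Calcr 24. Ctsk reached 50.8 CPM in endothelial-like nuclei and Acp5 24.2 CPM in mesothelial-like nuclei.

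For the 7 members with at least 20 CPM in some class, the genes with the most similar pattern over the 27 pool-by-class sums were found among 11207 genes by Pearson's r of log2(CPM + 5), as a description. The sums of a pool share a library. Nearest to Runx2 were Adcy7 (r = 0.91), Lpin2 (0.88) and Gna12 (0.88). Those nearest to Mgp were Bgn, a matrix proteoglycan gene (0.94), Kdelr2 (0.93) and Sec61a1 (0.92), and those nearest to Sost were Syt15 (0.89), Fblim1 (0.88) and Gm40725 (0.86). Pthlh was closest to Tnfsf10 (0.91), Col23a1 (0.90) and Dhh (0.89), Pth1r to Prrx1 (0.89), Gm32569 (0.88) and Kif3a (0.87). Enpp1 came nearest to Nipa1 (0.86), Btbd11 (0.83) and Crtc3 (0.80), and Ank to Arhgap31 (0.91), Grk5 (0.86) and Ranbp9 (0.85).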

How the data were processed

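Single-nucleus gene expression was measured in 3 pools of newborn mouse aortic valve structures. The deposited values are UMI counts, not normalized, of each gene in each nucleus. The authors made them with Cell Ranger, whose version stands as 7.1.0 in the matrix files, per the file headers. The submitters' processing notes list Cell Ranger 7.0.1 and 7.1.0 and the GRCm39 build. The annotation, the intron setting and the strand setting are not given in the sources used here. The 3 pools held 49918251, 25341316 and 21254247 UMIs.

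From these counts, nuclei with at least 1000 UMIs, 300 genes and at most 5% mitochondrial UMIs were kept. Scrublet's automatic threshold marked 0 nuclei, so, after this was seen, the top scores at 0.8% per 1000 deposited nuclei were removed. Nuclei were clustered with scanpy 1.11.5 and leidenalg 0.10.2 (2000 variable genes, 30 components, 15 neighbours, resolution 1) and named from at least 3 markers, each in at least 10% of nuclei and 2-fold above the rest; endocardial and endothelial clusters were merged. Cell types were rebuilt here, so names can differ from the study's. Counts were summed per pool and class (at least 20 nuclei in each pool) and tested with edgeR 4.0.16 (TMM, filterByExpr, robust quasi-likelihood, Benjamini-Hochberg adjustment), with pool as a block because the classes of a pool come from 1 library. Clusters were tested against the mean of the other clusters of their class. The members, gene lists and tests were chosen with earlier results of these data known. All 10 members are described. Of a pathway list, up to 4 genes called in a class are named for that class, those with the largest differences, beside genes with too few counts to test. Alternatives covered DESeq2 1.42.0, scaling, filters, doublets, clustering, the block and each pool left out. The comparison of the clusters within the fibroblast-like class is not reported here. Scripts were tested on simulated data.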

Additional observations from a re-analysis of the deposited data

Results flagged for a closer look

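The highest mean level of Runx2 was in nuclei outside the 9 tested classes. The 72 melanocyte-like nuclei (38, 18 and 16 in pools 1, 2 and 3) had a mean of 242 CPM, with 189, 167 and 369 CPM in the pools. The UMIs numbered 41, 12 and 25 and lay in 13, 6 and 8 nuclei. Each pool was above the highest pool of the tested classes, 152 CPM, whose UMIs all lay in 1 nucleus. In pool 2, 7 of the 12 melanocyte-like UMIs lay in 1 nucleus, and without it the level was 74.7 CPM. The nuclei were left out because 2 pools held under 20 of them. In a fit added after seeing the data, which took classes with at least 10 nuclei per pool, Runx2 was 4.09 higher on the log2 scale than the mean of the other classes (SE 0.27, adjusted p = 1.81e-17, edgeR), where 5.89% of 14004 genes were called higher. At 1000 UMIs per nucleus, 14.9% ± 14.2 (SD, n = 3 pools) had a Runx2 UMI.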

How the results depend on the processing

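No result changed direction under the alternatives run. Of 866 values for 81 results on members, 768 stayed on the same side of the threshold and 98 lost their call, and 47 of the 81 results kept it throughout. These totals count each mirror-image test of a class with 2 tested clusters from both sides. They include the fibroblast-like clusters, whose comparison is not reported here. For named pathway genes 1446 of 1596 values stayed and 150 were lost, and 71 of 114 differences kept their call throughout. Without the pool block, the members called in smooth muscle-like nuclei fell from 5 to 3, and those in valve interstitial-like against fibroblast-like nuclei from 4 to 2. The latter count was also 2 with DESeq2, with at least 500 UMIs, and with members and pathway genes in the clustering, and 2 to 3 when 1 pool was left out. Pathway genes called in endothelial-like nuclei numbered 26, and 17 to 23 with 1 pool left out, the lowest without pool 1. The cause was not tested. Mgp calls in valve interstitial-like (adjusted p = 0.304), fibroblast-like (0.185) and smooth muscle-like nuclei (0.0519) were lost without the pool block (edgeR). That setting ignores that the classes of a pool share 1 library. With no mitochondrial limit Pthlh in endothelial-like nuclei went from 34.7 to 10.1 CPM, and Spp1 in macrophage-like nuclei from 5.29 to 13.6 CPM. Cluster tests were rerun under the fit settings and not under other clusterings. Depth limits Spp1, Abcc6 and Alpl, with 29, 30 and 124 UMIs in all.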
